A study of Homo sapiens and Mus musculus with 26 samples.

Results

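NFE2L2, GCLC, GCLM, ME1 and ABCC2 are 5 genes of the oxidative stress response, and they were followed through all 12 mRNA libraries of the series. All 5 are among the 8074 genes of the expression table. They were chosen by symbol after their polysome and input FPKM in these same libraries were known, so the differences between knockdown and control cells given for them below are a description and carry no test.

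NFE2L2, also called NRF2, is a transcription factor that is held by the adaptor KEAP1, ubiquitinated through the CUL3 ligase and degraded while cells are unstressed. Oxidants and electrophiles modify KEAP1, NFE2L2 accumulates in the nucleus, and with a small MAF partner it binds antioxidant response elements of its target genes. GCLC and GCLM encode the catalytic and the modifier subunit of glutamate-cysteine ligase, the rate-limiting enzyme of glutathione synthesis. ME1 encodes the cytosolic malic enzyme, which makes NADPH, and ABCC2 encodes MRP2, a pump that exports glutathione and glucuronide conjugates across the canalicular membrane of hepatocytes.

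The cells were MHCC97H, a human hepatocellular carcinoma line. Control cells, labelled NC and wild type, were compared with cells in which METTL1, the tRNA m7G methyltransferase, was knocked down by a short hairpin RNA labelled shMETTL1-2. From each, total (input) RNA and polyribosome-associated mRNA were sequenced in 3 repeats, which gives 4 groups of 3 libraries. Setting polysome beside input RNA asks which mRNAs are bound by ribosomes to a different degree after the knockdown, and the other libraries of the series were not used here. The labels do not say whether repeats were separate cultures or whether the knockdown line was 1 clone, so the spread between repeats may be technical.

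METTL1 was at 47.9, 39.3 and 36.0 FPKM (fragments per kilobase of transcript, scaled to the size of the library) in control input and 11.9, 18.3 and 15.3 FPKM in knockdown input, with no overlap. In input RNA 2.42% of all genes were lower without overlap. On polysomes METTL1 was at 45.3, 43.8 and 38.2 FPKM in control and 8.29, 22.9 and 25.6 FPKM in knockdown cells. Like every other gene of the table, it was called in neither comparison in limma over all 12 libraries (adjusted p threshold 0.05). Of 15 hepatocyte and liver carcinoma markers, 5 were analysed here, among them APOH, HNF4A, KRT8 and KRT18, and of 17 fibroblast, endothelial and leukocyte markers only CD68 was. The table holds only genes at 1 FPKM or more in every library, so the absence of the others, ALB and AFP among them, shows only that they were below that level in at least 1 library or were not part of the table. FPKM summed to between 482334 and 821900 per library, and no read counts are given, so no counting error can be attached. Repeat 1 stood apart in input RNA. Over the whole table, log2 differences of repeat 1 from repeat 2 had an SD of 1.20 in control and 1.19 in knockdown input, whereas those of repeat 2 from repeat 3 had SDs of 0.126 and 0.118. The same SDs in polysome RNA were 0.464 and 0.106 for control and 0.656 and 0.143 for knockdown cells.

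NFE2L2 lies on chromosome 2 from 177230303 to 177264727 (GRCh38), GCLC on chromosome 6 from 53497341 to 53545101, GCLM on chromosome 1 from 93885199 to 93909430, ME1 on chromosome 6 from 83210402 to 83431051 and ABCC2 on chromosome 10 from 99782640 to 99852594. The promoter windows of RefSeq (GRCh38.p14), 250 bases before to 50 after each start, were searched on both strands for the core of the antioxidant response element, TGACNNNGC. Windows were given for all 5 genes, with 2 windows for NFE2L2. GCLM and ME1 held the core, and they are printed here because they are the 2 of the 5 genes with the element's letters in this window; matches are in capitals.
GCLM: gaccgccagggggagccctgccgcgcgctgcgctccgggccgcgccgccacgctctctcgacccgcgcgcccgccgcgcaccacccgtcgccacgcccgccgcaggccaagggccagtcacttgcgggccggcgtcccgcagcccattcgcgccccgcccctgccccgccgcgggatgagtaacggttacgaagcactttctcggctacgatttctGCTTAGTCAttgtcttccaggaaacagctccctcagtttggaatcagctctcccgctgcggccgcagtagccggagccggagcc
ME1: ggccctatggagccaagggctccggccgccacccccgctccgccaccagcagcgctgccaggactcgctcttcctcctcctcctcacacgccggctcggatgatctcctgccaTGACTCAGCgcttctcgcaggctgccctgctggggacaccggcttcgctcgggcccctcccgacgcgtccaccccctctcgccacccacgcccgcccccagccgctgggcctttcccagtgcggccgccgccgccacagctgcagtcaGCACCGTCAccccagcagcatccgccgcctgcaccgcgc
The GCLM window is chr1:93909381-93909680 on the minus strand, with its match (read on the opposite strand) at bases -34 to -26 from the start. The ME1 window is chr6:83431002-83431301 on the minus strand, with matches at -137 to -129 and, on the opposite strand, at 12 to 20. The first ME1 match also contains TGACTCA, the letters of the AP-1 element. The core is common: 20.5% of the 6633 genes of the table with a window held it, as did 20 of the 82 pathway genes with a window (24.4%). The windows of NFE2L2, GCLC and ABCC2 held no match, which says only that these letters are not in these windows.

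NFE2L2 mRNA was abundant on control polysomes and far lower on knockdown polysomes. It was at 30.0, 30.9 and 30.4 FPKM in the 3 control polysome libraries and at 11.2, 7.02 and 6.35 FPKM in the 3 knockdown ones. The control libraries were almost equal, and every knockdown library lay below all of them. The means were 30.4 ± 0.421 and 8.18 ± 2.61 FPKM (SD, n = 3 each), and the knockdown level was 37.2%, 22.7% and 20.9% of the control level in repeats 1, 2 and 3. On the log2(FPKM + 1) scale, which understates changes of low genes, the difference was -1.81. Its standard error was 0.20 in the fit of the 6 polysome libraries and 0.94 in that of all 12. The standard errors given here are moderated ones (empirical Bayes), which draw on the spread of other genes as well. Only 4 of the 8074 genes had a lower difference.

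Both subunits of glutamate-cysteine ligase were lower on knockdown polysomes. GCLC was at 34.3, 27.5 and 27.7 FPKM in control polysome RNA and at 15.2, 15.5 and 13.8 FPKM in knockdown polysome RNA. GCLM was at 89.9, 66.3 and 70.5 FPKM and at 48.7, 39.8 and 38.0 FPKM. Neither gene overlapped between the groups, and the knockdown level was 44.2% to 56.3% of control for GCLC and 53.9% to 60.0% for GCLM over the repeats. The log2 differences were -0.96 for the catalytic subunit (standard error 0.14 over the 6 polysome libraries) and -0.82 for the modifier subunit (0.17). Over all 12 libraries these standard errors were 0.69 and 0.33. GCLM had the smallest difference of the 5 genes and the highest level in every control library.

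ME1 and ABCC2 lay between NFE2L2 and the ligase. ME1 was at 62.8, 47.2 and 47.8 FPKM on control polysomes and at 26.0, 18.4 and 16.6 FPKM on knockdown polysomes. ABCC2 was at 50.9, 37.3 and 34.5 FPKM and at 16.5, 17.6 and 16.9 FPKM. The log2 differences were -1.34 for ME1 and -1.20 for ABCC2. Their standard errors were 0.20 and 0.17 over the 6 polysome libraries, and 0.76 for each over all 12. The malic enzyme was at 34.8% to 41.4% of control in each repeat and the pump at 32.4% to 49.1%. Again no knockdown library reached a control library. For ABCC2 the control repeats were spread and the knockdown repeats close together, and for NFE2L2 the reverse was seen.

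**Figure D1:**
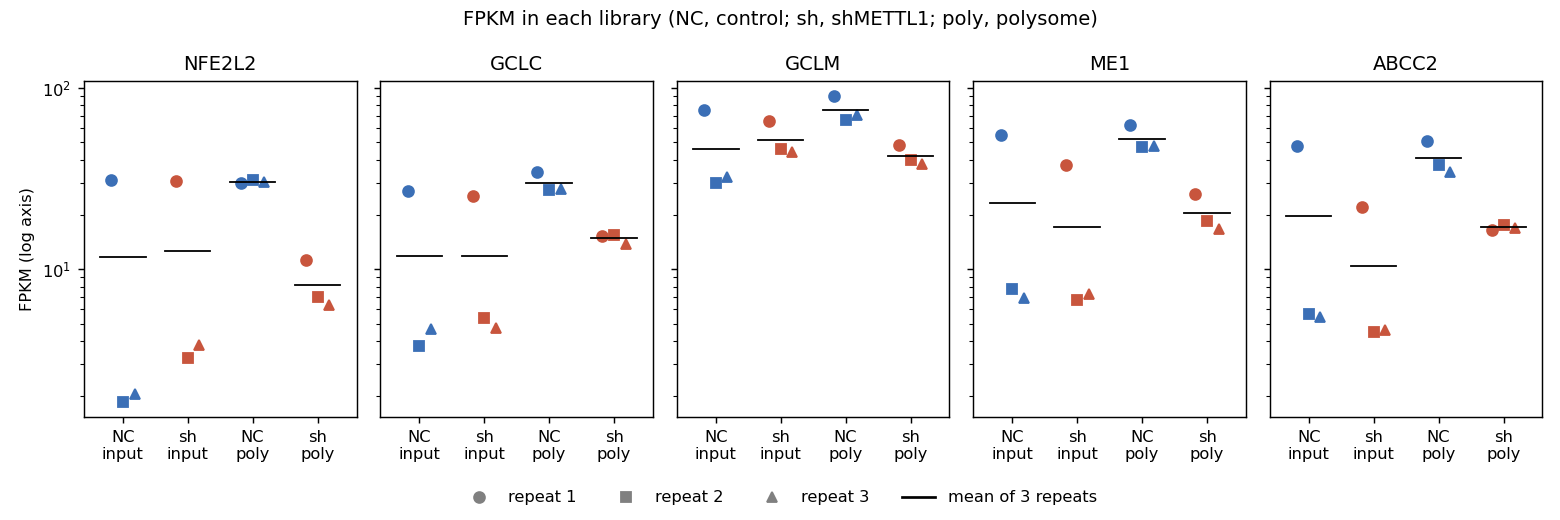
FPKM on a log axis in each of the 12 libraries, by gene and group (blue, NC control; red, shMETTL1); the black bar is the mean of 3 repeats. In polysome RNA the 3 control points lie above the 3 knockdown points for all 5 genes, whereas in input RNA repeat 1 (circles) lies above repeats 2 and 3 in both kinds of cells, by the least for GCLM (2.43 times their mean in control and 1.46 times in knockdown input).

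All 5 genes were thus lower on knockdown polysomes in 3 of 3 repeats, without overlap, where 26.5% of all genes were lower without overlap and 13.7% higher. Since this contrast was known when the genes were named, nothing is read from that count. When limma was fitted over all 12 libraries, the polysome comparison had no calls at an adjusted p of 0.05 in the whole table (0.0%), and 609 of 8074 genes had a raw p under 0.05. With the 6 polysome libraries alone, limma called 12.7% of the genes lower and 1.09% higher. Each value is relative to the rest of its library, and in these bulk samples fewer cells with the mRNA and less mRNA per cell cannot be told apart. The polysome difference followed genomic span across the table (Spearman's rho -0.455 over 7972 genes, a description, since genes are not independent replicates). ME1 spans 220650 bases, longer than 96.2% of the genes, and GCLM 24232 bases, near the table's median of 26482. After trends on span and mean level were removed, the differences were -1.53 for NFE2L2, -0.64 for GCLC, -0.79 for GCLM, -0.98 for ME1 and -0.85 for ABCC2, and 6 genes lay below NFE2L2.

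In input RNA the same genes showed no common direction. NFE2L2 was at 31.0, 1.85 and 2.04 FPKM in control input and at 30.6, 3.23 and 3.79 FPKM in knockdown input. Its repeat 1 values were nearly equal between the cells, while in repeats 2 and 3 the knockdown level was 175% and 186% of control. These low values lie close to the table's lower limit of 1 FPKM. GCLM was at 75.3, 29.9 and 32.1 FPKM in control and 65.6, 45.9 and 44.1 FPKM in knockdown input, not near that limit. It too was higher in knockdown input in repeats 2 and 3, at 154% and 138% of control, but was at 87.1% in repeat 1. GCLC was at 26.9, 3.77 and 4.67 FPKM and at 25.4, 5.34 and 4.70 FPKM, so that only repeat 2 stood apart between the cells.

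The enzyme and the pump were on the lower side. ME1 was at 54.9, 7.78 and 6.95 FPKM in control input and 37.4, 6.78 and 7.28 FPKM in knockdown input. ABCC2 was at 47.5, 5.62 and 5.44 FPKM and at 22.1, 4.49 and 4.61 FPKM, and it was the only one of the 5 that was lower in all 3 repeats, at 46.4%, 79.9% and 84.7% of control. The mean log2 differences were 0.40 for NFE2L2, 0.11 for GCLC, 0.28 for GCLM, -0.22 for ME1 and -0.51 for ABCC2. None of the 5 was without overlap, against 2.42% of all genes lower and 1.91% higher. Those of NFE2L2, GCLC, ME1 and ABCC2 changed sign when 1 input library was left out: without control input repeat 1, for example, ABCC2 was at 0.45 and ME1 at 0.69.

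**Figure D2:**
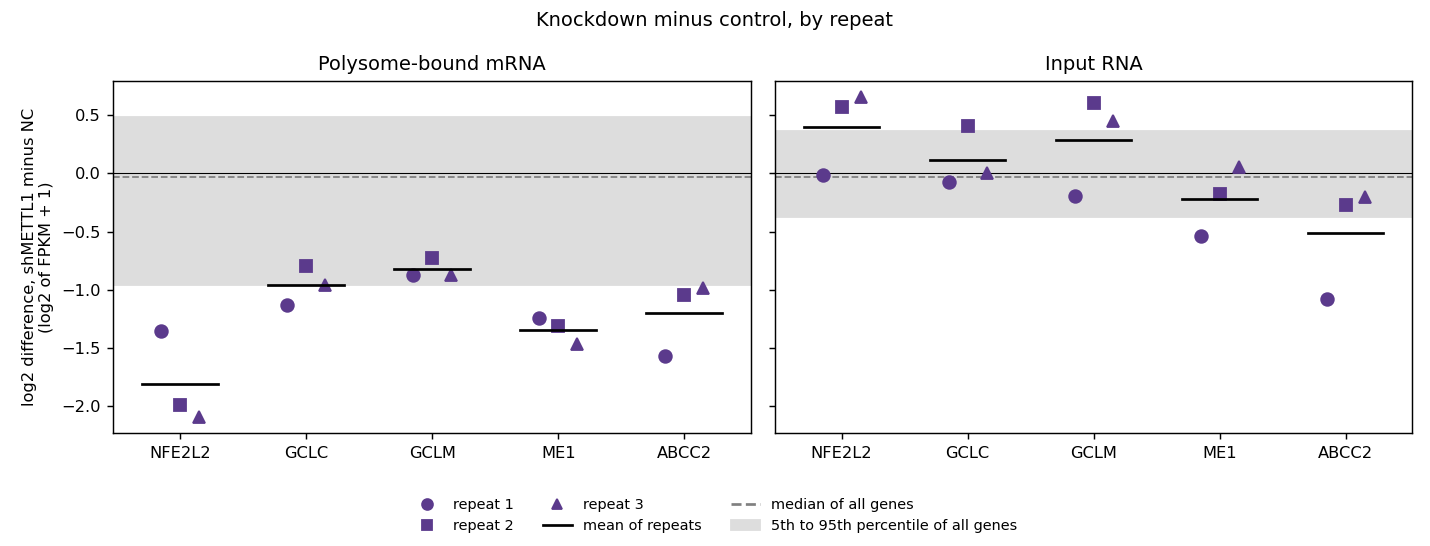
Log2 difference (shMETTL1 minus NC, log2 of FPKM + 1) in each repeat, in polysome RNA (left) and input RNA (right); black bars are means, the dashed line is the median of all genes and the grey band their 5th to 95th percentile. In polysome RNA every repeat of the 5 genes lies below 0, with means from -1.81 to -0.82, and in input RNA the repeats lie on both sides of 0 except for ABCC2.

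The gap between repeat 1 and the later repeats of input RNA was large for 4 of the 5 genes. In control input, repeat 1 of NFE2L2 was 15.9 times the mean of repeats 2 and 3, a gap that 56 of 8074 genes exceeded on the log2 scale. The ratio was 8.59 for ABCC2, 7.45 for ME1, 6.36 for GCLC and 2.43 for GCLM. In knockdown input it was 8.73, 4.85, 5.32, 5.06 and 1.46 in the same order of genes. In polysome RNA the ratios lay between 0.957 and 1.67 in both kinds of cells, so the gap was much smaller there. On control polysomes the ratio was 0.980 for NFE2L2 and from 1.24 to 1.42 for the other genes. With that gap in input RNA, the input groups of the genes other than GCLM had SDs as large as their means or nearly so. For NFE2L2 they were 11.6 ± 16.8 FPKM in control and 12.6 ± 15.7 in knockdown input. Apart from GCLC, where they were narrowly apart, no gene's input and polysome groups were separate in the control cells. GCLM, at 45.7 ± 25.6 and 51.9 ± 11.9 FPKM in input RNA, was the steadiest. For each gene the control polysome group had the highest mean.

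Polysome over input, the measure of how much of an mRNA is found on ribosomes relative to its input level, was lower in knockdown cells in every repeat for all 5 genes. A fall in all 3 repeats was common, as 2831 of the 8074 genes showed it on the log2 scale. For NFE2L2 the ratio of FPKM was 0.968, 16.7 and 14.9 in control cells and 0.365, 2.17 and 1.68 in knockdown cells. In repeat 1 of the controls polysome and input FPKM were thus nearly equal, and in repeats 2 and 3 polysome FPKM was many times input FPKM. Those 2 ratios rest on input values of 1.85 and 2.04 FPKM, near the table's lower limit. Over all genes the median log2 difference of polysome from input in control cells was 0.035, 0.60 and 0.58 in repeats 1, 2 and 3. Within each repeat the knockdown ratio of NFE2L2 was the lower one. GCLC had ratios of 1.28, 7.29 and 5.94 against 0.596, 2.90 and 2.94, and GCLM of 1.19, 2.22 and 2.20 against 0.743, 0.868 and 0.861. GCLM was the only one whose ratios did not overlap between the cells, against 6.08% of all genes lower and 10.6% higher without overlap, and the only one below 1 in all 3 knockdown repeats. ME1 had ratios of 1.14, 6.07 and 6.87 against 0.695, 2.71 and 2.28, and ABCC2 of 1.07, 6.64 and 6.33 against 0.749, 3.92 and 3.67.

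On the log2 scale the difference in polysome over input was -2.21 for NFE2L2, the lowest of the 8074 genes, with -1.33, -2.56 and -2.75 in the repeats. It was -1.07 for GCLC, -1.11 for GCLM, -1.12 for ME1 and -0.68 for ABCC2. The standard errors over all 12 libraries were 0.46 for GCLM and between 0.98 and 1.33 for the others. These averages lean on the input values of repeat 1: without knockdown input repeat 1 NFE2L2 was at -1.28, GCLC at -0.36, ME1 at -0.37 and ABCC2 at 0.00022, and without control input repeat 1 they were at -3.36, -1.88, -2.04 and -1.65. No gene of the table was called in limma over all 12 libraries in this comparison or in input RNA (0.0% in each; the raw p was under 0.05 for 336 and 134 genes).

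In control cells alone, GCLC was the only one of the 5 whose polysome libraries were all above its input libraries, which 18.7% of all genes were. The groups were narrowly apart, with input repeat 1 at 26.9 FPKM and the lowest polysome library at 27.5 FPKM. The contrast of polysome with input in control cells had no calls in limma either (0.0%; the raw p was under 0.05 for 1735 genes). GCLC, GCLM, ME1 and ABCC2 were higher in polysomes than in input in 3 of 3 control repeats, and NFE2L2 in 2 of 3. That was common, since 3448 of the 8074 genes were higher in all 3 control repeats. In knockdown cells GCLM was lower in polysomes than in input in 3 of 3 repeats, and the other genes in repeat 1 only.

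**Figure D3:**
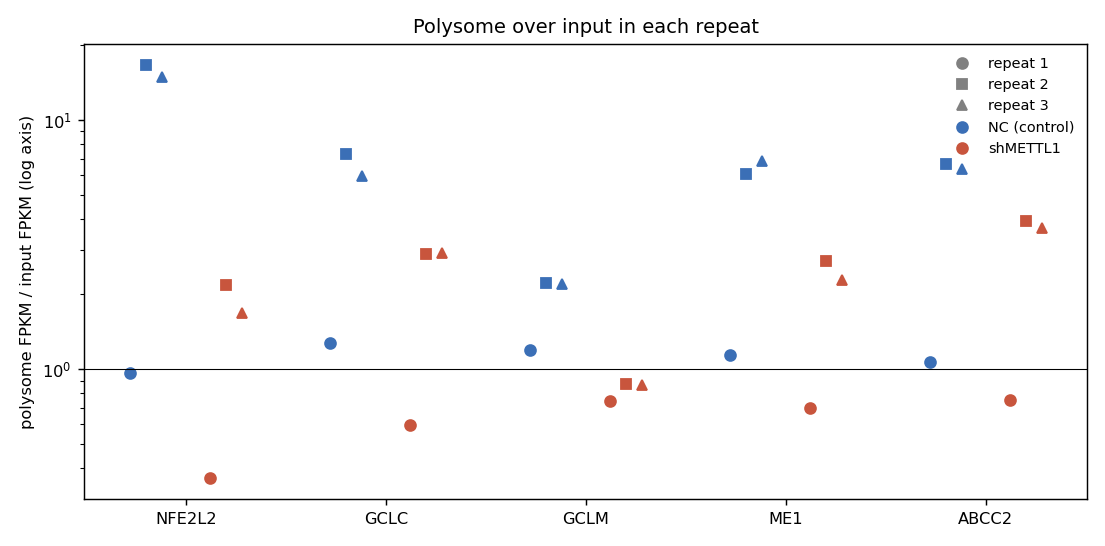
Ratio of polysome to input FPKM in each repeat (log axis) in NC control cells (blue) and shMETTL1 cells (red). Within each repeat the red symbol lies below the blue one for all 5 genes, and repeat 1 (circles) lies below repeats 2 and 3.

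The other genes of the pathway were taken from 6 lists of 124 genes, of which 104 were analysed here. In polysome RNA 45 were below 0 and 59 above, with a median log2 difference of 0.07, against -0.03 over all genes. Without overlap, 17 were lower (16.3%) and 18 higher (17.3%), where all genes had 26.5% and 13.7%. None was called in limma over all 12 libraries, and the raw p of 3 was under 0.05. In the 6 polysome libraries alone 8 fell (7.69%) and 0 rose, where 12.7% of all genes fell.

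Among 14 regulators of NFE2L2, 7 were below and 7 above 0 in polysome RNA. CUL3, the scaffold of the ligase that ubiquitinates NFE2L2, was at 17.8, 22.3 and 21.4 FPKM on control polysomes and 6.12, 10.0 and 9.94 FPKM on knockdown polysomes. Its log2 difference was -1.17, an unadjusted p of 0.0485 and a limma adjusted p of 0.659 over 12 libraries, and 0.0161 over the 6 polysome libraries. In input RNA it was at 15.2, 3.83 and 3.69 FPKM in control and 13.8, 4.32 and 4.16 FPKM in knockdown cells, so its input groups overlapped and, as for NFE2L2, repeat 1 was the highest in both. KEAP1, the adaptor that holds NFE2L2, was at 6.19, 6.05 and 6.09 against 7.87, 5.78 and 5.72 FPKM on polysomes, a difference of 0.06 that became -0.067 with only repeats 2 and 3. SQSTM1, which sequesters KEAP1, was at 919, 599 and 591 against 993, 562 and 580 FPKM, with overlapping groups and a difference of -0.0021 that became 0.17 when library medians were made equal. PALB2, a KEAP1-binding repair protein, was at -0.52 with overlapping groups (limma adjusted p = 0.683).

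In the glutathione list, 17 of 24 genes were above 0 on polysomes, 5 higher and 3 lower without overlap (against 13.7% and 26.5% of all genes), with a median of 0.26 that stayed between 0.23 and 0.43 under other scalings. GSTO2, an omega glutathione transferase, was at 0.64, higher without overlap (limma adjusted p = 0.604 over 12 libraries and 0.0636 over 6), and GSTK1, a mitochondrial and peroxisomal transferase, at 0.35 with overlapping groups (0.677). GGCT, which breaks down gamma-glutamyl peptides, passed the test in the 6 polysome libraries, where its log2 value fell by 0.58 (adjusted p from limma 0.0202). It and the genes PRDX3, UGDH, ALDH3A2 and NNT below were named after their values were seen.

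NADPH supply, the function of ME1, was divided. Of 12 genes 5 were below and 7 above 0. IDH1, the cytosolic isocitrate dehydrogenase, was at 60.4, 49.1 and 47.6 FPKM on control polysomes and 18.8, 20.6 and 18.6 FPKM on knockdown polysomes, with no overlap. Its difference of -1.38 had a limma adjusted p of 0.662 over 12 libraries and of 0.00737 over the 6 polysome libraries, and in input RNA it was at -0.64. NNT, the mitochondrial transhydrogenase, fell by 0.71 (log2) in the 6 libraries (limma adjusted p = 0.0451). IDH2, the mitochondrial counterpart of IDH1, was at 0.29.

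Of 20 thioredoxin, peroxiredoxin and other antioxidant enzymes, 9 were below and 11 above 0. TXNRD1, cytosolic thioredoxin reductase and a standard NFE2L2 target, was at 883, 935 and 979 FPKM on control polysomes and 476, 763 and 709 FPKM on knockdown polysomes, lower without overlap but uncalled (log2 difference -0.55, limma adjusted p = 0.736 over 12 and 0.143 over 6 libraries). PRDX3, the mitochondrial peroxiredoxin, fell in the 6 libraries by 0.92 (limma adjusted p = 0.0188). TXN2 and PRDX4, the mitochondrial thioredoxin and the peroxiredoxin of the endoplasmic reticulum, were at 0.33 and 0.26.

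Quinone, carbonyl, heme and iron genes numbered 27, with 13 below and 14 above 0. NQO1, the quinone reductase often used to read NFE2L2 activity, was at 621, 611 and 571 against 557, 773 and 737 FPKM on polysomes, overlapping, with a difference of 0.18 that became -0.058 with quantile normalization. HMOX1, the inducible heme oxygenase, was at 128, 95.7 and 104 against 101, 82.1 and 89.8 FPKM on polysomes (-0.25, overlapping). In input RNA it went from 128, 91.2 and 97.8 FPKM to 80.1, 43.3 and 42.9 FPKM, a log2 difference of -0.96 without overlap and an unadjusted p of 0.00355 that did not survive adjustment (limma adjusted p = 1.00). HMOX2 was at 0.29 on polysomes. CBR4, a carbonyl reductase, ALDH3A2, a fatty aldehyde dehydrogenase, and UGDH, which makes UDP-glucuronate, fell in the 6 polysome libraries by 0.59, 0.56 and 0.79 (limma adjusted p = 0.0391, 0.0383 and 0.0260).

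Of 7 other efflux transporters, from the ABCC, ABCB and ABCG families, 4 were below and 3 above 0 on polysomes. ABCG2, the breast cancer resistance protein, was lower without overlap at -0.43 (limma adjusted p = 0.677) and ABCC10 higher at 0.33 (0.705). In input RNA 5 of the 104 pathway genes were lower without overlap (4.81%, against 2.42% of all genes) and none higher (1.91% of all genes): HMOX1, MAFK, PRDX2, OSGIN1 and ABCC3, the last 4 of them named after their values were seen. In polysome over input, 17 pathway genes were higher without overlap (16.3%, against 10.6% of all genes) and 2 lower (against 6.08% of all genes), SLC7A11 at -0.60 and ABCG2 at -0.59, of which SLC7A11, the cystine carrier, was named after its value was seen. In that measure the median was 0.20 over the 104 genes, against 0.043 over all genes.

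**Figure D4:**
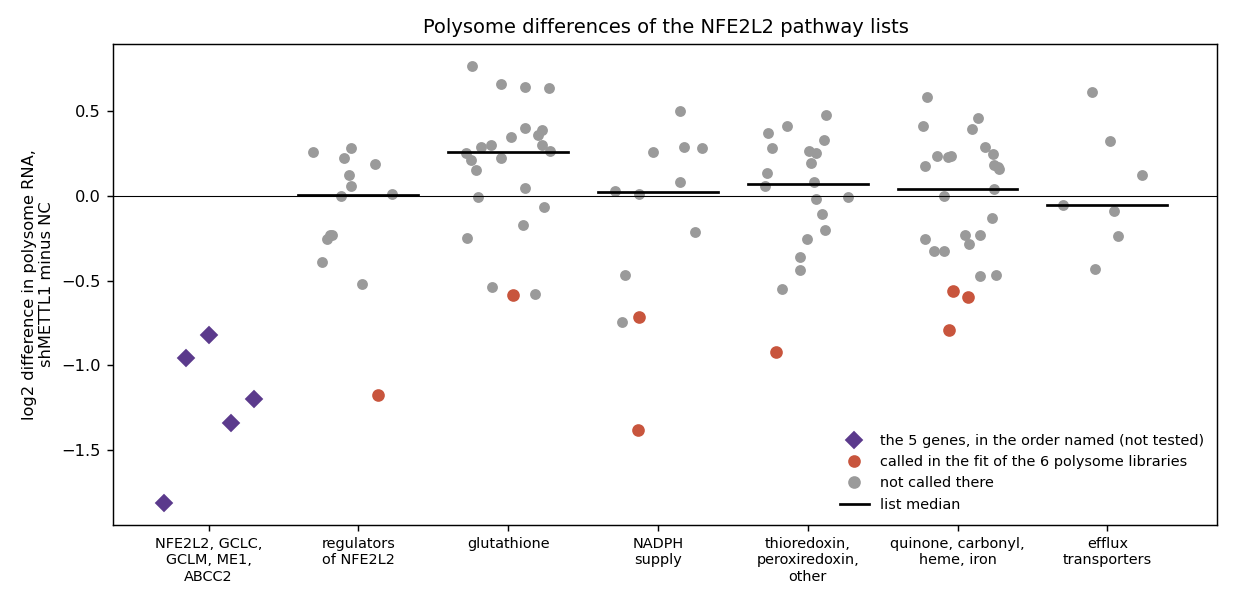
Log2 difference in polysome RNA (shMETTL1 minus NC) of the 5 genes (diamonds) and of 104 other pathway genes by list (circles; red, called in the fit of the 6 polysome libraries; bars, list medians). The 5 diamonds lie at or below -0.82, where of the other genes only CUL3, IDH1 and PRDX3 are found, and list medians lie between -0.05 and 0.26.

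The genes whose log2 values were most like those of NFE2L2 over the 12 libraries were HTATSF1, an elongation and splicing factor, with a Pearson correlation of 0.992, MAPK6, an atypical MAP kinase, with 0.990, SYNCRIP, an RNA-binding protein, with 0.989, ACSL3, an acyl-CoA synthetase, with 0.989, and GPATCH11, with 0.989. These are descriptions over libraries that fall into separate clusters, in which the values of NFE2L2 are low in input repeats 2 and 3 and on knockdown polysomes. HTATSF1 was at 40.2, 5.94 and 6.10 FPKM in control input, at 48.6, 41.6 and 41.9 FPKM on control polysomes and at 18.5, 14.7 and 15.1 FPKM on knockdown polysomes. Of the other 4 genes, ME1 ranked 81st by this measure, GCLC 255th, ABCC2 862nd and GCLM 965th of the remaining genes.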

How the data were processed

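Input and polyribosome-associated mRNA of MHCC97H cells was sequenced from libraries made with a stranded mRNA kit, per the labels' protocols. The authors deposited FPKM values per gene, 8074 genes by 12 libraries, with no value below 1. The submitters' processing notes list the aligner Bowtie2, the counter HTSeq and the build GRCh38, without versions or order, and the sources used here do not give the annotation or the FPKM formula. Columns were matched to samples by the group and repeat in the titles; columns named as treated were taken as the polysome libraries.

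The R package limma (3.58.1, under R 4.3.3) was fitted to log2(FPKM + 1) with group means over all 12 libraries, empirical Bayes with an intensity trend, Benjamini-Hochberg adjustment over all genes, two-sided, called at 0.05. The script was tested on simulated data. Polysome over input was the interaction in the same model. Deviations from group means correlated across genes in each of 18 pairs of libraries with the same number (0.319 to 0.942), and the repeat number was a block in an alternative fit. The 36 pairs with different numbers ranged from -0.940 to 0.928, and were positive between repeats 2 and 3 and negative with repeat 1, so the numbers mainly set repeat 1 apart. Repeats 2 and 3 were close; without counts it could not be tested whether they differ by more than sampling noise, so they were also averaged. Spans and promoters came from RefSeq tables of GRCh38.p14.

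The 5 genes and the pathway lists were chosen with earlier results of these data known. Other genes named were METTL1, KEAP1, SQSTM1, NQO1, HMOX1 and TXNRD1, the 2 genes of each list with the smallest polysome p, and the 5 most correlated with NFE2L2; GGCT, PRDX3, UGDH, ALDH3A2, NNT, MAFK, PRDX2, OSGIN1, ABCC3 and SLC7A11 were named outside this rule, after their values were seen. Small RNA tables were not used, and some named items are not reported here.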

Additional observations from a re-analysis of the deposited data

How the results depend on the processing

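Over 22 alternatives the polysome difference stayed below 0 for each of the 5 genes. They differed in the libraries fitted, pseudocount, filter, scaling, intensity trend and left-out library, and included the removal of trends on span and mean level. The difference lay from -2.04 to -1.53 for NFE2L2, -1.01 to -0.64 for GCLC, -0.93 to -0.65 for GCLM, -1.52 to -0.98 for ME1 and -1.31 to -0.85 for ABCC2. For all but GCLM, the end nearest to no difference came from the removal of span and level trends. Many of these alternatives could not test the sign of the polysome difference. In a fit of group means, leaving out an input library or fitting the polysome libraries alone leaves the polysome difference as it was. Because the polysome groups did not overlap for these genes, leaving out a polysome library could change its size but not its sign. Input differences crossed 0 for 4 genes when an input library was left out, over -0.53 to 1.55 for NFE2L2, -0.60 to 0.92 for GCLC, -0.97 to 0.69 for ME1 and -1.20 to 0.45 for ABCC2, and stayed above 0 for GCLM (0.05 to 0.70). Polysome over input stayed below 0 except for ABCC2 without knockdown input repeat 1 (0.00022). The design is balanced, so the replicate block left every difference as it was, and with it 0 pathway genes were called in each comparison.

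Of the 104 pathway genes, limma called 8 in the 6 polysome libraries, against 0 over all 12. With only repeats 2 and 3, an alternative chosen after seeing the data, it called 74 in polysome RNA, 61 in input RNA, 77 in polysome over input and 91 for polysome against input in control cells. These p are too small if the 2 close repeats share a preparation. Leaving out 1 library gave 0 calls in the first 3 comparisons and 0 to 45 in the last, the 45 without control input repeat 1. The shares of all genes called in these alternative fits are not given here, so nothing is read from the counts about the pathway. Equal medians and quantile normalization shifted all polysome differences by a median of 0.17 and 0.11. Small differences changed sign: KEAP1 (-0.067 with only repeats 2 and 3; single libraries left out, -0.075 to 0.13, below 0 without knockdown polysome repeat 1), SQSTM1 (0.17 with equal medians, 0.026 with repeats 2 and 3 averaged, and -0.27 to 0.21 without single libraries) and NQO1 (-0.058 with quantile normalization). So did list medians near 0: NADPH supply (-0.17) and quinone and related genes (-0.18) with quantile normalization, efflux (0.06 with quantile normalization, 0.12 with equal medians) and regulators (-0.07 with only repeats 2 and 3). The cause was not tested. The floor of 1 FPKM limits what the low input values of NFE2L2 can show.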

Other observations

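Across the 8074 genes, the gap between repeat 1 and repeats 2 and 3 of control input RNA went with the polysome difference between knockdown and control cells, with a Spearman's rho of -0.683. The measures share no library, but genes are not independent replicates. NFE2L2 stood near the end of both, with a gap of 3.44 on the log2 scale against a median of 0.67 over all genes, and a polysome difference of -1.81. GCLM had the smallest gap of the 5 genes (1.26) and the smallest polysome difference (-0.82). Genomic span also went with the gap (rho 0.286 over 7972 genes) and with polysome over input in control cells (rho 0.325). The part of these trends in the values of the 5 genes was not tested beyond the removal of span and level trends, which left NFE2L2 at -1.53.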
